A study of Mus musculus with 16 samples.

Results

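Remote summits were studied here, the ChIP-seq peak summits that lay more than 200 kb from every protein-coding transcript start of the mouse genome (mm10, GENCODE M21 basic). The rule used position alone and no measured value. Of the 227116 summits in the 13 lists, 226962 lay on chromosomes 1 to 19, X and Y, and 52134 of these were remote. Merging summits within 100 bp of the next gave 39744 remote sites and 133061 sites elsewhere.

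Embryonic mouse fibroblasts with a GFP reporter under the Oct4 promoter (OG2 MEFs) received retroviruses for Sox2, Klf4 (together SK) and 1 POU factor before the switch to iCD1, a chemically defined reprogramming medium, from which days were counted. Oct4 was pulled down from Oct4-SK cells (days 1, 5 and 7) and Oct4defSox2, an Oct4 mutated at its Sox2 interface, from Oct4defSox2-SK cells (days 1 and 5). The cocktails for Sox2 ChIP, each at days 1 and 5, were Oct6-SK, Oct4-SK and Oct4defSox2-SK. Oct4 S151M in Oct4 S151M-SK cells and Oct6 M151S in Oct6 M151S-SK cells, a pair of mutants that carry each other's residue at a position governing homodimer formation, were profiled at day 1. For Oct6 M151S the title gave day 1 but the characteristics gave day 2, and day 1 was used. Antibodies against Oct4, also used for both Oct4 mutants, gave 6 libraries, those against Sox2 gave 6 and an antibody against Oct6 gave 1. All cells carried the retroviral SK factors.

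Each of the 16 groups, of which 3 were inputs not analysed here, had 1 library, so libraries were compared and not conditions, and no p-value was computed. Read depth was unknown and the lists held between 1034 and 101151 summits. The lowest score, the −log10 of the MACS2 p-value, ranged from 4.00 to 4.12 except in Oct6 M151S, where the list went down to 2.3. The day 7 Oct4 library had shorter reads than the others. Intervals in parentheses are at the 95% level, Wilson's for a share and Newcombe's, in percentage points, for a difference. Both cover counting error only, and a difference whose interval excluded 0 is described as past counting error. Oct4 S151M gave 48.2% of all remote summits, so the recurrence of merged sites was also computed without it, while densities, gene lists and blocks were computed over all 13 libraries only.

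Gene deserts are long stretches of the genome without coding genes. Many lie beside genes for developmental transcription factors and adhesion molecules, and some hold enhancers that act on a promoter far away through folding of the chromatin. Oct4 and Sox2 can bind DNA in closed chromatin, Oct4 as a monomer on the octamer, with Sox2 on the composite SoxOct element, or as a homodimer on the palindromic MORE element.

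Some remote sites, chosen by score or by number of libraries, are printed here as 141 bases of the + strand of GRCm38 (mm10). Each window is centred on a summit, with motif matches in capitals. The first pair carried SoxOct, in which a Sox element directly precedes an octamer-like one. The window in an intron of Ebf1, a B-lineage transcription factor, held a match without mismatch around the strongest remote summit of Oct4 at day 7 (chr11:44841826-44841966). The window between Gulp1, an engulfment adaptor, and Col3a1, the alpha chain of type III collagen, held a match on the - strand with 2 mismatches (chr1:44891765-44891905).
Ebf1 intron: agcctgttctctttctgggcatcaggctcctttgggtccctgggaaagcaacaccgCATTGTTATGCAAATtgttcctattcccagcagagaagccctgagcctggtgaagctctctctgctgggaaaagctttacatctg
Gulp1 to Col3a1: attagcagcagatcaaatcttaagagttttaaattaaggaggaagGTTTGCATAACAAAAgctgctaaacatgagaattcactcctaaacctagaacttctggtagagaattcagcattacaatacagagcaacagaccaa

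The next 3 windows carried MORE. The window 579 kb from the start of Nr2f2, an orphan nuclear receptor, held a match without mismatch under the strongest remote summit of Oct4defSox2 at day 1 (chr7:69781179-69781319). The window in an intron of Lrp1b, an LDL receptor-related protein, held the spaced form without mismatch under the strongest remote summit of Oct4 S151M, and also a Sox motif (chr2:42224407-42224547). The window between Tle1, a Groucho-family corepressor, and Aldoart1, the nearer start, held a match with 1 mismatch and a Sox motif and had Oct4 summits at days 1, 5 and 7 (chr4:72647100-72647240).
Nr2f2: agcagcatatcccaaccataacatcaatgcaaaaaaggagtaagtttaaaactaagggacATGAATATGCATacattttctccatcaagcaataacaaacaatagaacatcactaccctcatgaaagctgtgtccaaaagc
Lrp1b intron: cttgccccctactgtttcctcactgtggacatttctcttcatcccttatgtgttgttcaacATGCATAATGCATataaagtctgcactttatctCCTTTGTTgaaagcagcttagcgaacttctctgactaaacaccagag
Tle1: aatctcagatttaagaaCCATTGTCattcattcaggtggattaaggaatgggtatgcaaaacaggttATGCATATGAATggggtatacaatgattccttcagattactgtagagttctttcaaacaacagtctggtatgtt

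The last 3 windows are shown for Sox2 and for recurrence. The window between Prdm1, a transcriptional repressor, and Prep, a peptidase, lay in an exon of the lincRNA Gm47389 and held a Sox motif on each strand under the strongest remote summit of Sox2 in Oct4-SK at day 5 (chr10:44716729-44716869). The window in an intron of Fhit, a dinucleotide hydrolase encoded by a very long gene, held a Sox motif and was bound in 12 libraries (chr14:10175017-10175157). The window between Rab38, a small GTPase, and Tmem135 held a SoxOct match with 2 mismatches and was bound in 11 libraries (chr7:88735886-88736026).
Prdm1 to Prep: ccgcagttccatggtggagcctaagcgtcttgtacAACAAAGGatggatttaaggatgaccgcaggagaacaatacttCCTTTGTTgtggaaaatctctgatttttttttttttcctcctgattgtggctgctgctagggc
Fhit intron: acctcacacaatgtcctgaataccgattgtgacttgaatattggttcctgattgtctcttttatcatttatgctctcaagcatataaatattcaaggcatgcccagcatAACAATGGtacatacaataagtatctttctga
Rab38 to Tmem135: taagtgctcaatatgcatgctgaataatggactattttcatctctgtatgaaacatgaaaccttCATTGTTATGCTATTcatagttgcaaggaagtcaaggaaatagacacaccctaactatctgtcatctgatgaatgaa

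The name gene desert fitted only some of these sites. Of the remote summits, 70.6% (70.2 to 71.0) lay outside both coding and lncRNA gene bodies. A further 20.1% (19.7 to 20.4) lay inside a coding gene body, against 56.6% of the summits elsewhere, among them introns of very long genes such as Fhit and Lrp1b. Coding exons held 0.180% (0.147 to 0.221). Bodies of lncRNA genes held 10.0% (9.79 to 10.3) and 1.56% (1.46 to 1.67) lay within 1 kb of a start of any annotated transcript. When starts of every transcript were counted and not only coding ones, 9.48% (9.23 to 9.73) of the remote summits remained more than 200 kb away.

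Remote territory covered 719 Mb of the 2648 Mb of sequenced bases, or 27.2%, in 1354 unbroken blocks, of which 1145 held a remote summit. Its bases were 38.9% GC against 42.7% elsewhere, and 41.8% soft-masked as repeats against 34.4%. There were 55.3 remote sites per Mb and 69.0 sites per Mb elsewhere. Within remote territory the density was 73.5 per Mb inside coding gene bodies and 52.1 outside them. The Y chromosome held 39.7 Mb of remote territory and 1 remote summit, and the X chromosome had 22.9 sites per Mb against 60.9 on chromosomes 1 to 19. The part that read mapping played in these low densities was not tested. Of the remote sites, 75.4% had another within 10 kb, and the median distance between neighbours was 3.42 kb.

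The median distance from a remote summit to the nearest coding start was 392 kb, and the farthest lay at 2705 kb. Beyond 500 kb lay 36.1% (35.7 to 36.5) and beyond 1000 kb 9.79% (9.54 to 10.1) of them. The threshold of 200 kb cut through a continuous distribution. The bin from 190 to 200 kb held 1.17% of the Oct4 summits at day 1 and that from 200 to 210 kb 0.927%, where the genome had 1.02% and 0.970% of its bases.

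The first question was whether the remote share of summits differed between days. Per the study, Oct6-SK and Oct4defSox2-SK gave no GFP-positive colonies, so days in these cocktails only count time after the medium switch. In all 5 series with more than 1 day the remote share of summits was lower at day 5 than at day 1, for Oct4, for Oct4defSox2 and for Sox2 in the 3 cocktails. The remote share of Oct4 summits was 23.7% (1947 of 8199, 22.8 to 24.7) at day 1, 17.6% (853 of 4846, 16.6 to 18.7) at day 5 and 15.0% (543 of 3614, 13.9 to 16.2) at day 7. The difference between days 5 and 1 was -6.14 points (-7.55 to -4.72), and that between days 7 and 5 was -2.58 points (-4.15 to -0.984). Oct4 thus had its lowest remote share at the last day sampled, and both steps were past counting error. At a distance of 500 kb the second step was -0.495 points (-1.44 to 0.473) and no longer so, and with starts of every transcript it was 0.0342 points (-0.424 to 0.521).

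Oct4defSox2 had a remote share of 24.1% (7492 of 31060, 23.6 to 24.6) at day 1 and 18.7% (193 of 1034, 16.4 to 21.2) at day 5, a difference of -5.46 points (-7.76 to -2.92). For Sox2 in Oct4-SK the shares were 26.0% (3961 of 15219, 25.3 to 26.7) and 15.3% (885 of 5793, 14.4 to 16.2), a difference of -10.7 points (-11.9 to -9.57). For Sox2 in Oct6-SK they were 34.2% (1110 of 3242, 32.6 to 35.9) and 17.8% (475 of 2669, 16.4 to 19.3), a difference of -16.4 points (-18.6 to -14.2). The day 1 Sox2 library of Oct6-SK stood above all other libraries, and its remote share was 1.26 times that of the genome. For Sox2 in Oct4defSox2-SK the shares were 27.8% (1613 of 5793, 26.7 to 29.0) and 17.3% (3724 of 21551, 16.8 to 17.8), a difference of -10.6 points (-11.8 to -9.32). The number of summits was lower at day 5 in 4 of these 5 series and higher in Sox2 of Oct4defSox2-SK, so the share was lower at day 5 with fewer and with more summits.

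**Figure D1:**
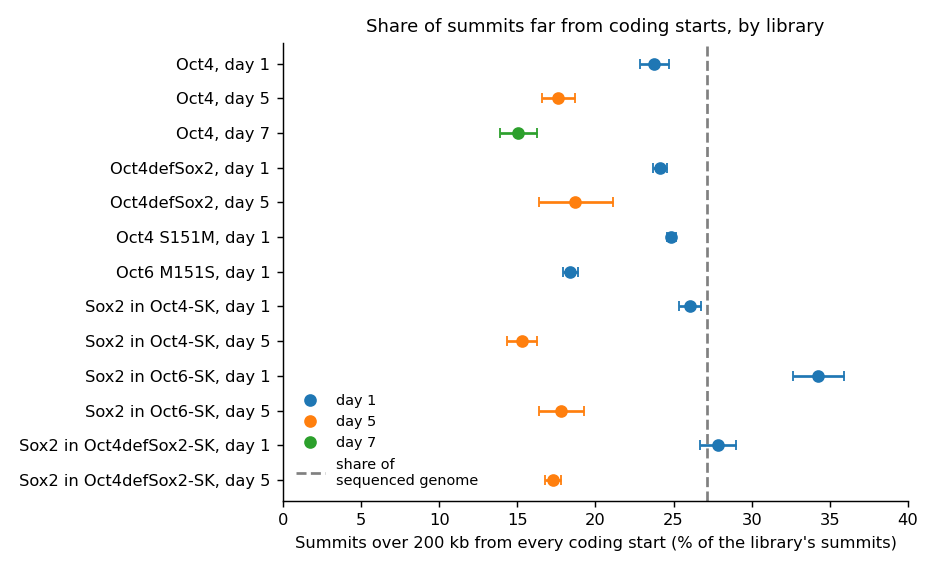
Share of each library's summits that lay more than 200 kb from every coding start, in percent, with Wilson 95% intervals as bars, colours for the day and a dashed line at the 27.2% of sequenced bases that were remote. All day 5 and day 7 libraries sit between 15.0% and 18.7%, while the day 1 libraries sit between 23.7% and 34.2% with the exception of Oct6 M151S at 18.4%.

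Base composition moved with the day. The median GC content of the windows of 100 bp to each side of remote summits was 36.3% for Oct4 at day 1, 39.3% at day 5 and 39.8% at day 7. In the Sox2 libraries the median moved from 35.3% at day 1 to 40.3% at day 5 with Oct6-SK, from 36.8% to 41.8% with Oct4-SK and from 36.8% to 40.8% with Oct4defSox2-SK. Summits elsewhere were more GC-rich in each library, and their medians were also higher at day 5 than at day 1 in each of the 5 series. Among windows of 35 to 45% GC, an alternative chosen after seeing the data, the difference between days 5 and 1 was -1.75 points (-3.67 to 0.1998) for Oct4 and -3.30 (-6.55 to 0.364) for Oct4defSox2, no longer past counting error. It remained past counting error for Sox2, at -11.1 points (-14.1 to -7.97) with Oct6-SK, -6.72 (-8.47 to -4.90) with Oct4-SK and -4.87 (-6.57 to -3.20) with Oct4defSox2-SK.

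The profile by distance showed where the day 5 summits lay. The share of Oct4 summits within 1 kb of a coding start was 2.77% at day 1 and 7.10% at day 5, and the share beyond 1000 kb was 2.15% and 1.22%, against 3.08% of the genome. For Sox2 in Oct4-SK the share within 1 kb was 3.75% and 8.15%, and that beyond 1000 kb 2.64% and 1.10%. The differences were also computed away from promoters. Among summits more than 50 kb from coding starts, an alternative also chosen after seeing the data, the difference in remote share between days 5 and 1 was -12.0 points for Sox2 in Oct4-SK, -15.0 in Oct6-SK, -7.98 in Oct4defSox2-SK and -5.76 for Oct4, all past counting error. For Oct4defSox2 it was -3.53 points (-7.91 to 0.999), with 0 inside its interval.

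**Figure D2:**
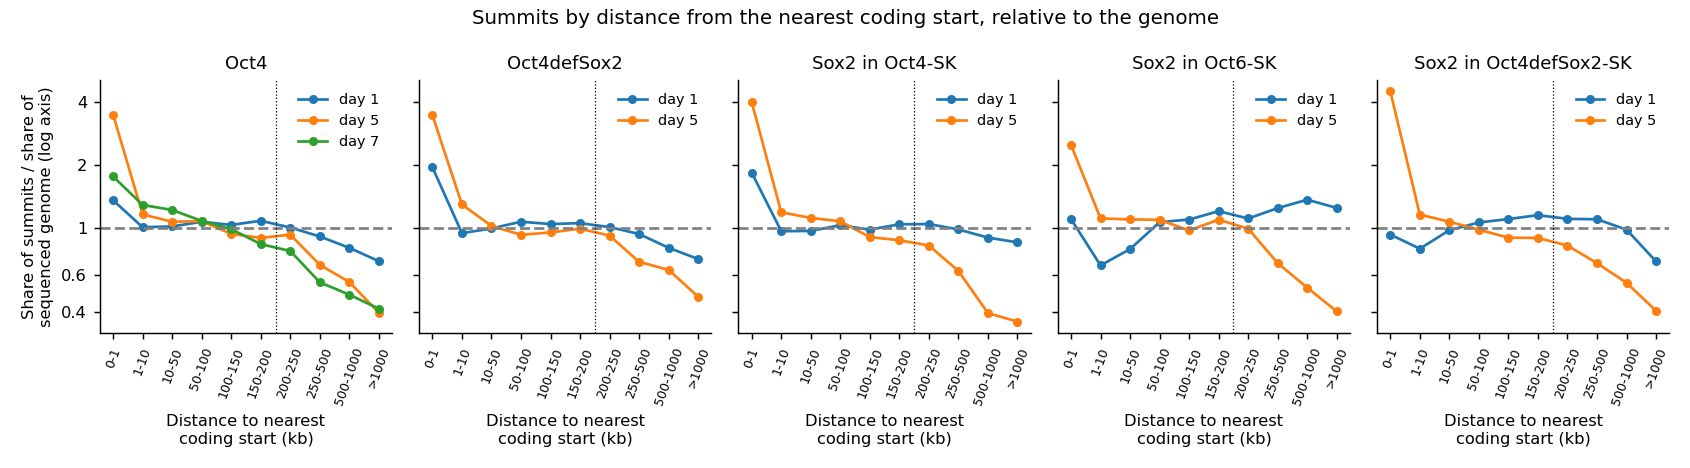
Share of summits in bins of distance to the nearest coding start, divided by the share of sequenced bases in the same bin (log axis), by series and day. Points to the right of the dotted line are remote. At day 5 every series lies above 1 within 1 kb of a start and below 1 beyond 250 kb, and Sox2 in Oct6-SK at day 1 lies above 1 in each remote bin as plotted, the first of which spans 200 to 250 kb.

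The turnover of individual summits was examined next. Summits present at the earlier day only had the highest remote share in all 6 steps, and those found on both days a lower one. For Oct4 between days 1 and 5 the remote share was 25.2% (24.1 to 26.3) of the 6187 lost summits, 19.4% (17.7 to 21.2) of the 2012 kept and 16.4% (15.1 to 17.8) of the 2836 gained. For Sox2 in Oct6-SK it was 35.2% (33.5 to 36.9) of the lost, 26.0% (21.5 to 31.0) of the kept and 16.7% (15.2 to 18.2) of the gained summits. Both the summits lost and those gained thus moved the share towards coding starts. The exceptions to the order lost, kept, gained were Oct4 between days 5 and 7, with 13.9% (12.1 to 15.98) of the kept and 15.6% (14.2 to 17.1) of the gained summits, and Oct4defSox2, with 17.6% (15.0 to 20.5) and 21.3% (17.1 to 26.2). Both pairs of intervals overlapped.

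**Figure D3:**
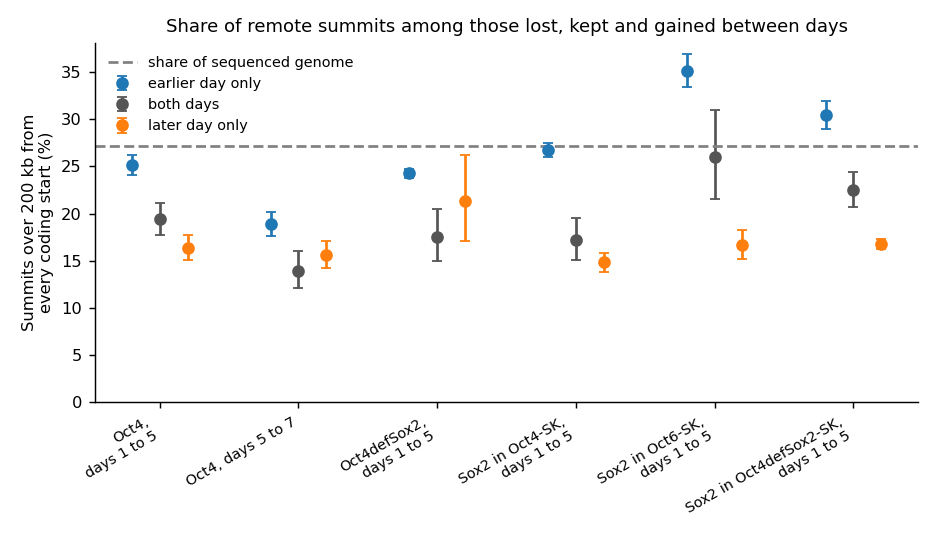
Remote share, in percent with Wilson 95% intervals, of summits found at the earlier day only, on both days and at the later day only, for the 6 steps between days; the dashed line is the remote share of the sequenced genome. Summits of the earlier day only have the highest share in each step, up to 35.2% for Sox2 in Oct6-SK.

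Retention can also be counted from day 1. Remote Oct4 sites of day 1 were less often bound at day 5 than those elsewhere, and the same held for Oct4defSox2 and for Sox2 in Oct4-SK. Of the remote Oct4 sites, 390 of 1947 (20.03%, 18.3 to 21.9) were kept, against 25.9% elsewhere and 24.5% of all 8199 sites, a difference of -5.91 points (-7.95 to -3.79). Of the remote Oct4defSox2 sites, 128 of 7492 (1.71%, 1.44 to 2.03) were kept, against 2.55% elsewhere and 2.35% of all, a difference of -0.842 points (-1.18 to -0.468). Of the remote Sox2 sites in Oct4-SK, 189 of 3961 (4.77%, 4.15 to 5.48) were kept, against 8.09% elsewhere and 7.23% of all, a difference of -3.32 points (-4.13 to -2.46). Within windows of 35 to 45% GC these differences were -3.55, -0.533 and -2.64 points, still past counting error. The size of the day 5 list limited how many sites could be kept, since Oct4defSox2 had 1034 summits at day 5 and 31060 at day 1. With equal numbers of the strongest summits on both days, 26.2% of remote and 39.3% of other Oct4defSox2 sites were kept, a difference of -13.15 points (-19.4 to -6.29). For Sox2 in Oct4-SK the same setting gave 9.51% and 15.9%, a difference of -6.36 points (-8.13 to -4.47). Counted from day 5, with all summits, the sign turned for Oct4 and for Sox2 in Oct4-SK. Of the remote Oct4 sites of day 5, 45.6% were bound at day 1, against 40.6% elsewhere (5.01 points, 1.36 to 8.69). For Sox2 in Oct4-SK the shares were 21.5% and 18.6% (2.91 points, 0.0989 to 5.93). For Oct4defSox2 they were 66.3% and 71.5% (-5.14 points, -12.7 to 1.89). Retention from day 1 thus does not show by itself that remote binding was less stable.

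Sorting the merged Oct4 sites by presence at days 1, 5 and 7 gave a fuller account of whole trajectories. Of 2734 remote sites, 55.3% (53.4 to 57.1) had Oct4 at day 1 alone, against 42.2% of 10381 sites elsewhere. Those with Oct4 on all 3 days numbered 112 (4.10%, 3.42 to 4.91), against 6.80% elsewhere. Sites of days 1 and 5 without day 7 went the other way, with 10.2% (9.16 to 11.4) of remote sites and 8.88% of those elsewhere. SoxOct was found in 47.3% of these 112 remote sites and in 35.6% of their counterparts elsewhere, while MORE was found in 9.82% and 18.1%. Remote sites bound at days 5 and 7 only, 61 in number, had SoxOct in 50.8%, and those of day 1 alone in 11.6%, against 40.9% and 11.1% elsewhere.

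The mutant POU factors were compared with Oct4 in remote share, mainly at day 1. The study describes S151M as increasing homodimer formation by Oct4 and M151S as decreasing it for Oct6. The Oct6 M151S list also differed from that of Oct4 in protein, antibody and lowest score. Because no list of unmutated Oct6 was among those analysed here, the effect of M151S could not be told apart from these. Oct4defSox2 and Oct4 did not differ past counting error in remote share at day 1 (0.374 points, -0.672 to 1.40) or at day 5 (1.06 points, -1.45 to 3.76). Oct4 S151M had a remote share of 24.9% (25145 of 101151, 24.6 to 25.1), 1.11 points (0.142 to 2.06) above Oct4. That difference did not hold under some other settings. With equal numbers of the strongest summits it was -5.34 points (-6.59 to -4.10), within 35 to 45% GC -1.20 points (-2.45 to 0.0137) and at a distance of 100 kb 0.406 points (-0.695 to 1.498). Oct6 M151S had 18.4% (4193 of 22791, 17.9 to 18.9), a difference of -5.35 points (-6.41 to -4.31) from Oct4. At a score of at least 10 it was 0.639 points (-4.93 to 7.22), and with starts of every transcript -0.271 points (-0.645 to 0.0727). Its windows were the most GC-rich among the day 1 libraries, with medians of 40.8% at remote summits and 46.3% elsewhere, and within 35 to 45% GC its difference from Oct4 was 2.69 points (1.20 to 4.16) in the other direction. Of its remote summits, 24.04% (22.8 to 25.4) had a q-value under 0.05, against 20.6% (19.99 to 21.2) elsewhere. All summits of Oct4 S151M passed that level, remote and elsewhere alike.

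Sox2 and Oct4 were compared within Oct4-SK cells. Sox2 had the higher remote share at day 1, by 2.28 points (1.12 to 3.43), and the lower one at day 5, by -2.33 points (-3.75 to -0.912). Within windows of 35 to 45% GC the day 5 difference was -0.960 points (-3.11 to 1.19), not past counting error. With starts of every transcript neither difference was. It measured 0.361 points (-0.0481 to 0.751) for day 1, and for day 5 it measured -0.0336 points (-0.452 to 0.371).

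At the main distance and with all scores, recurrence across libraries was nearly the same in remote territory and elsewhere. Of the 39744 remote sites, 6269 (15.8%, 15.4 to 16.1) had summits of at least 2 libraries, against 15.8% of all 172805 sites, and the difference from sites elsewhere was -0.00428 points (-0.410 to 0.407). The sign of this difference turned with the settings and the libraries counted. It was 0.654 points (0.297 to 1.01) at a distance of 100 kb, -1.46 points (-2.04 to -0.850) at 500 kb and -1.15 points (-1.66 to -0.632) at a score of at least 10. It was 1.24 points (0.612 to 1.88) without Oct4 S151M and -0.709 points (-1.15 to -0.268) without Oct6 M151S. Of the 33475 remote sites of a single library, 61.5% came from Oct4 S151M. Sites with summits of at least 2 antibodies made up 8.16% (7.90 to 8.43) of remote sites, against 7.46% elsewhere and 7.62% of all, a difference of 0.6995 points (0.399 to 1.01) that was 0.0141 points (-0.304 to 0.343) at a score of at least 10. Without Oct4 S151M this difference was larger, at 2.36 points (1.82 to 2.91), and without Oct6 M151S it was 0.361 points (0.0519 to 0.677). At least 7 libraries shared 222 remote sites (0.559%, against 0.558% of sites elsewhere), at least 10 shared 32 (0.0805% against 0.0661%), 2 were found in 12 libraries and 0 in all 13.

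**Figure D4:**
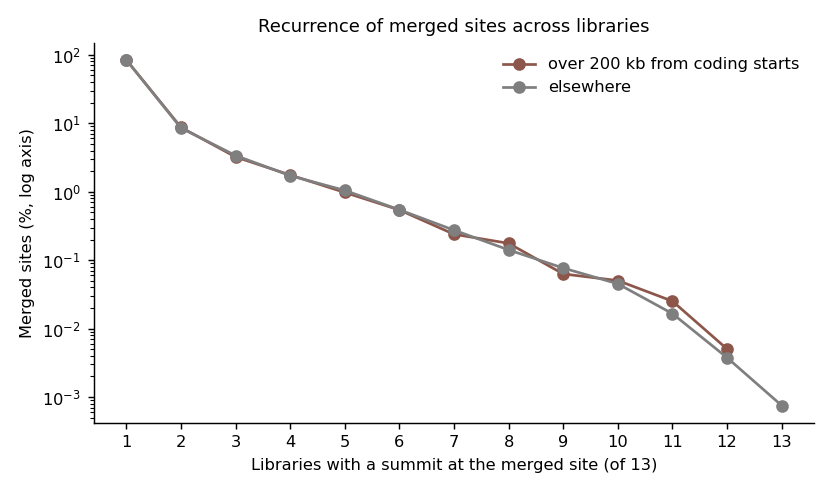
Merged sites by the number of libraries with a summit there, as a percentage of all remote sites or of all sites elsewhere (log axis). The 2 curves nearly coincide from 1 library (84.2% of both) to 7, and remote sites reach 12 of 13 libraries.

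Recurrent remote sites differed in sequence from those of a single library, and the trends were graded. The Sox motif was found in 8.23% (7.94 to 8.53) of remote sites of 1 library, 18.4% (17.3 to 19.5) of those of 2 to 3, 26.6% (24.3 to 29.1) of those of 4 to 6 and 42.8% (36.5 to 49.4) of those of 7 to 12. AP-1, the motif of Fos and Jun dimers that are active in fibroblasts, rose from 7.26% to 15.6%, 20.9% and 21.2% over the same classes, and SoxOct from 4.15% to 10.3%, 14.6% and 17.1%. MORE went the other way, from 19.5% (19.1 to 19.97) to 10.7%, 8.38% and 4.95% (2.79 to 8.65), and so did the share of summit bases soft-masked as repeats, from 29.7% to 20.3%, 16.9% and 10.4%. Since most sites of a single library came from Oct4 S151M, the class of 1 library was made up largely of that list.

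Sharing between POU factors was then counted from the Oct4 sites of day 1. Of the remote ones, 57.3% (1116 of 1947, 55.1 to 59.5) were bound by Oct4defSox2, against 57.5% of all, and 77.7% (1512, 75.8 to 79.5) by Oct4 S151M, against 78.3% of all. Neither differed from sites elsewhere past counting error, at -0.231 points (-2.75 to 2.27) and -0.877 points (-3.03 to 1.20). These shares were lower with equal numbers of the strongest summits, where 37.2% of remote Oct4 sites and 37.04% of those elsewhere were bound by Oct4defSox2, and 18.8% and 20.9% by Oct4 S151M. With Oct4 S151M and all summits the difference was -4.34 points (-6.84 to -1.86) at a sharing distance of 50 bp and 2.24 points (0.635 to 3.73) at 250 bp. Sox2 of Oct4-SK at day 1 was found at 23.1% (449, 21.2 to 25.0) of remote Oct4 sites, against 18.9% elsewhere and 19.9% of all, a difference of 4.203 points (2.14 to 6.35). Counted from this Oct4 list, remote sites were thus more often shared with Sox2 at day 1 and, as above, less often kept at day 5. With Sox2 of Oct4-SK at day 5 the difference was -1.45 points (-2.65 to -0.124), the opposite sign. Counted from the Sox2 list of Oct4-SK at day 1, Oct4 of day 1 was found at 11.3% of remote sites and 10.45% elsewhere. That difference, 0.839 points (-0.272 to 2.00), was not past counting error.

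Motifs were searched as consensus strings on both strands within 100 bp of a summit. They were SoxOct with up to 2 mismatches, MORE in its unspaced and spaced forms with up to 1, and without mismatch the octamer ATGCAAAT, AP-1 as TGACTCA or TGAGTCA, the Sox motif as CCATTGT or CCTTTGT followed by C, G or T, and KLF as GGGCGGGGC, GGGCGTGGC, GGGTGGGGC or GGGTGTGGC. The octamer overlaps SoxOct. In windows of the same length tiled along remote territory they were found in 1.28% (SoxOct), 0.980% (MORE), 2.21% (octamer), 2.82% (AP-1), 6.52% (Sox) and 0.386% (KLF) of windows, against 0.994%, 0.705%, 1.57%, 3.23%, 6.06% and 0.955% elsewhere. A match describes the sequence and does not show which factor bound there.

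SoxOct was more frequent at remote Oct4 summits on later days. The share with SoxOct at days 1, 5 and 7 was 14.9% (13.4 to 16.6), 23.0% (20.3 to 25.9) and 34.8% (30.9 to 38.9). Summits elsewhere had 15.1%, 18.9% and 31.4%. The difference between remote summits and those elsewhere was past counting error at day 5, at 4.10 points (1.12 to 7.27), and not at day 1 (-0.236, -2.001 to 1.63) or day 7 (3.42, -0.812 to 7.82). Among summits with a score of at least 10 it was also past counting error at day 7, at 8.53 points (1.72 to 15.3). Remote summits of Oct4defSox2 had SoxOct in 8.42% (7.82 to 9.07) at day 1 and 5.70% (3.21 to 9.92) at day 5, and MORE in 6.63% (6.09 to 7.22) and 28.0% (22.1 to 34.7). Its summits elsewhere moved alike, with SoxOct in 7.2% and 5.95% and MORE in 7.27% and 29.01%. The Sox motif was found in 15.9% (14.8 to 17.1) of remote Sox2 summits in Oct4-SK at day 1 and 27.6% (24.7 to 30.6) at day 5, against 15.7% and 28.5% elsewhere. It was also higher at day 5 in Oct6-SK, with 23.0% (20.6 to 25.5) and 27.4% (23.55 to 31.55) of remote Sox2 summits, where the intervals overlapped. In Oct4defSox2-SK it went the other way, from 23.9% of remote Sox2 summits at day 1 to 18.7% at day 5, where summits elsewhere had 21.3% and the difference was -2.59 points (-3.95 to -1.17). KLF matches were less frequent at remote summits than elsewhere in each of the 13 libraries, from 0.601% against 1.13% in Oct4 S151M to 3.16% against 5.56% in Sox2 of Oct4-SK at day 5, as they were in the tiled genome. In 4 libraries, Oct4 at day 7, Oct4defSox2 at day 5 and both days of Sox2 in Oct6-SK, the interval of this difference included 0.

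**Figure D5:**
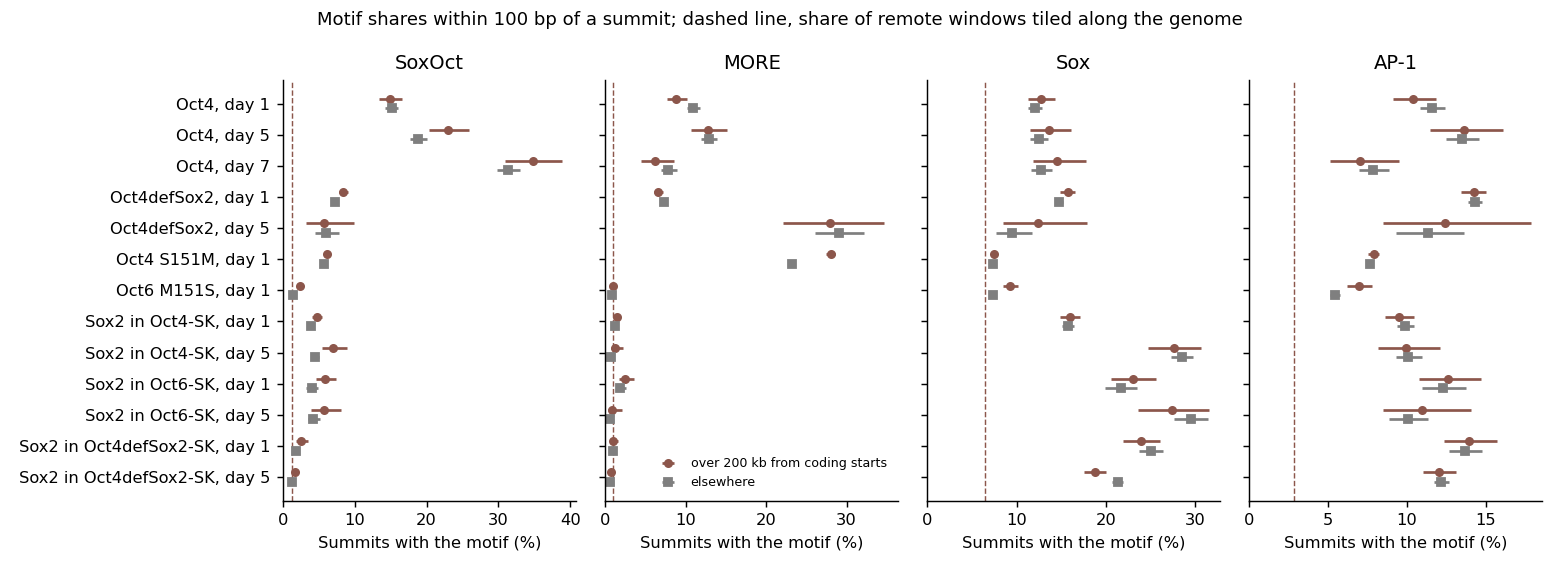
Percentage of summits with a SoxOct, MORE, Sox or AP-1 match within 100 bp, by library, for remote summits and those elsewhere, with Wilson 95% intervals; the dashed line is the percentage of windows of the same length with a match in remote territory. Remote Oct4 summits lie at 14.9%, 23.0% and 34.8% for SoxOct at days 1, 5 and 7, and MORE is separated between remote and other summits in Oct4 S151M (28.0% and 23.3%).

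Remote summits of Oct4 S151M carried MORE more often than its other summits, and those of Oct4 at day 1 did so less often. The share was 28.0% (27.5 to 28.6) against 23.3% (23.0 to 23.6), a difference of 4.77 points (4.14 to 5.40), while in Oct4 at day 1 it was 8.83% (7.65 to 10.2) against 10.96%, a difference of -2.12 points (-3.55 to -0.584). In Oct4 at days 5 and 7 the differences, -0.0941 points (-2.43 to 2.52) and -1.62 points (-3.63 to 0.908), were not past counting error. The share with MORE in Oct4 S151M rose with distance, from 19.7% (18.96 to 20.6) within 5 kb of a coding start to 24.8% (24.4 to 25.3) at 50 to 200 kb and 29.9% (28.3 to 31.7) beyond 1000 kb. GC content moved with it, from a median of 38.8% to 36.8% and 32.3%. The difference was past counting error in each GC class under 45%, between 3.08 and 6.39 points, and was 1.68 points (-0.900 to 4.43) above it.

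The remote summits of that list, although more often with MORE, were less often among its highest scores. Within the list MORE was more frequent at a score of at least 10, with 31.01% of remote summits and 26.05% of those elsewhere. Of the remote Oct4 S151M summits, 21.8% (21.3 to 22.3) had a score above the 75% quantile of the list, against 26.3% (26.0 to 26.6) elsewhere, a difference of -4.51 points (-5.10 to -3.91). By distance this share was 27.3% within 5 kb of a coding start and 19.6% beyond 1000 kb. Remote Sox2 summits in Oct4-SK at day 1 exceeded this quantile of their list in 27.9% (26.5 to 29.3), against 26.5% elsewhere, a difference of 1.37 points with 0 inside its interval (-0.236 to 3.00).

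The genes beside remote territory were described next, each remote site being assigned to its nearest coding start. The 4 kinds of gene compared here come from lists drawn up with earlier results of these data known. Genes of fibroblasts and mesenchyme had the highest density, with 641 sites on 7.33 Mb (87.5 per Mb), and developmental transcription factors had 1510 on 22.7 Mb (66.6 per Mb). Cell adhesion and synaptic genes, listed because they lie beside gene deserts, had 5728 on 95.9 Mb (59.7 per Mb). Genes of the pluripotency network had 196 on 3.40 Mb (57.7 per Mb), and all remote territory had 55.3 per Mb. The adhesion and pluripotency values lay below the 60.9 per Mb of chromosomes 1 to 19, where X and Y are left out. Among genes with at least 0.1 Mb of remote territory the medians per gene were 86.6, 67.4, 57.6 and 64.3 sites per Mb, over 17, 47, 74 and 10 genes in the same order, against 55.6 over all 1419 such genes.

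In the fibroblast list the most sites lay by Zeb2, a repressor of E-cadherin that is also among the developmental factors, with 149 (90.4 per Mb), and by Inhba, the activin A subunit, with 79 (110.6 per Mb). Thbs1, a matrix glycoprotein, had 27 at 146 per Mb. Among developmental transcription factors, the orphan nuclear receptors Nr2f1 and Nr2f2 had 87 and 70 sites, the retinal and limb regulator Dach1 had 76, and Sox11 had 57. Among adhesion genes, the teneurin Tenm3 had 225, the guidance protein Flrt2 215 and the protocadherin Pcdh7 197. Of the pluripotency genes, 11 of 38 lay beside remote territory, against 28 of 62 fibroblast genes and 56 of 69 developmental factors, and there Dppa4 had 43 sites, the nuclear receptor Nr5a2 34 and Klf4 31. The adhesion list took a smaller share of remote Sox2 summits at day 5 than at day 1, with 16.8% (14.8 to 19.2) and 12% (9.38 to 15.2) with Oct6-SK, where the intervals overlapped, 15.1% (13.99 to 16.2) and 10.8% (8.97 to 13.1) with Oct4-SK, and 13.9% (12.3 to 15.7) and 10.8% (9.89 to 11.9) with Oct4defSox2-SK. In Oct4 the adhesion list had 13.8%, 12.7% and 15.3% at days 1, 5 and 7, with overlapping intervals. The pluripotency list had larger shares of remote Sox2 summits at day 5, on at most 31 summits a library, with 0.270% and 1.47% in Oct6-SK, 0.328% and 1.02% in Oct4-SK and 0.310% and 0.832% in Oct4defSox2-SK, where the intervals overlapped in all 3. The developmental list was also higher at day 5, with intervals apart only in Oct4defSox2-SK, at 2.73% (2.04 to 3.64) and 4.27% (3.67 to 4.97). For these lists no interval on the difference between days was computed, and overlap of single intervals does not show that shares were equal.

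The 6 blocks with the most sites were over 3 Mb long. The block between Tenm3 and Aga, 4.44 Mb without a coding gene body, held 326 sites, of which 227 were bound by Oct4 S151M, 12 by Oct4 at day 1, 2 at day 5 and 5 at day 7. Sox2 in Oct4-SK had 30 sites there at day 1 and 1 at day 5, and Sox2 in Oct4defSox2-SK 9 and 20, in lists whose remote summits went from 3961 to 885 and from 1613 to 3724. The block between Pcdh20 and Pcdh9, the longest at 5.02 Mb, held 277 sites, that between Slc10a2 and Efnb2 266, that between Nudt12 and Efna5 265, that between Sel1l and Flrt2 253, and that between Zeb2 and Acvr2a 241. The densest of the 214 blocks of at least 1 Mb, between Lrriq3 and the adhesion gene Negr1, had 115 sites per Mb, where the median of these blocks was 52.5.

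Single sites showed how the printed elements were used across libraries, and scores are given to rank a site within its own library. The Nr2f2 site with MORE scored 580 in Oct4defSox2 at day 1 and 117 at day 5, within the top 0.00966% and 1.35% of these lists. In Oct4 it scored 67.1 at day 1 and 4.78 at day 5, which placed it in the top 1.54% and then near the end of the list. Oct4 S151M had it at 658, and none of the 6 Sox2 libraries had a summit there.

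The Lrp1b site scored 1118 in Oct4 S151M, 14.5 and 11.1 in Oct4 at days 1 and 5, and 47.1 in Oct4defSox2 at day 1. Its summit base was soft-masked as a repeat. The Ebf1 site with SoxOct had the reverse timing in Oct4, with no summit at day 1, a score of 9.53 at day 5 and 81.8 at day 7, and it was in the top 0.858% of the day 7 list. At the Tle1 site Oct4 scored 79.8 at day 1, 86.3 at day 5 and 18.3 at day 7, and a site between Gpr149 and Mme, the peptidase neprilysin, had almost the same scores, 79.4, 87.6 and 19.8. Both carried MORE with 1 mismatch. The Gulp1 to Col3a1 site with SoxOct scored 86.7, 26.3 and 29.8 in Oct4 on the same days and was bound in 9 libraries.

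The strongest remote Oct4 summit at day 1, at 132, lay in an intron of Sox5, a SoxD transcription factor, and that of day 5, at 90.4, lay more than 1 Mb from both Nmbr and the coactivator-binding Cited2. Neither window held a match to the motifs searched. The Prdm1 site scored 51.6 and 81.7 for Sox2 in Oct4-SK at days 1 and 5, and 17.6 and 140 in Oct4defSox2-SK. In Oct6-SK it scored 37.3 at day 5 and had no summit at day 1. Oct4 was bound there at days 1, 5 and 7 with scores of 10.2, 11.01 and 11.7. In Oct4defSox2-SK the strongest remote Sox2 summit of day 1, at 52.8, lay in an intron of Npas3, a bHLH-PAS transcription factor, and that of day 5, at 198.5, between Zfp352 and Elavl2, an RNA-binding protein of neurons. The strongest of Oct6-SK at day 1 scored 24.9 and lay 556.5 kb from Dusp26, a phosphatase.

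The Fhit site, 1 of the 2 remote sites found in 12 libraries, lacked a summit in Sox2 of Oct4-SK at day 5 only. It ranked highest in Oct4defSox2 at day 1, with a score of 175 in the top 0.338%, and had 48.1, 16.2 and 7.62 in Oct4 at days 1, 5 and 7. The Rab38 site scored 25.2, 8.23 and 10.03 in Oct4 on these days and between 11.8 and 22.9 in the 6 Sox2 libraries, and lacked a summit in Oct4defSox2 at day 5 and in Oct6 M151S. A site between the potassium channel gene Kcnj2 and Sox9, a factor of cartilage and testis development, was bound in 11 libraries at 701 kb and 1015 kb from their starts. Its scores were between 7.39 in Oct4 at day 5 and 96.8 in Oct4 S151M. A site 207 kb from Phf3, just past the threshold, was also bound in 11 libraries and gave the strongest remote Sox2 summit of Oct4-SK at day 1, at 65.8.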

How the data were processed

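ChIP-seq of Oct4, Sox2 and Oct6 was performed by the authors. Per the methods of the study and the processing notes of the submitters, reads were aligned to mm10 with Bowtie2 2.2.5, filtered with SAMtools and peaks were called per library with MACS2 at a fixed p-value. Scores under that threshold occurred only in the Oct6 M151S list, and its own threshold is not given in the sources used here. The deposited score of each summit is the −log10 of its p-value, which depends on depth. Peak tables of the 2 libraries of Oct4 S151M and Oct6 M151S held, as deposited by the authors, a fold enrichment (ratio to local background) and a −log10 q-value.

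Distances were measured to protein-coding starts of GENCODE M21 basic (154 summits off chromosomes 1 to 19, X and Y were left out). Summits were merged by single linkage within 100 bp, and a site was bound in another library when a summit lay within 100 bp. GC content and motifs came from the GRCm38 sequence within 100 bp of the summit. Groups came from titles. In all, 28 comparisons of shares were made with Newcombe intervals, without a test across replicates. The members, gene lists and comparisons were chosen with earlier results of these data known. Named sites were the strongest remote summit of each library, the 6 sites of most libraries, the 2 sites of highest mean Oct4 score over days 1, 5 and 7, the 2 strongest with each of 3 motifs, and the 6 blocks with most sites, of which those that show an element or a contrast are given. Some loci are not reported here.

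Alternatives were 100 or 500 kb, starts of every transcript, a score of at least 10, 1 summit per peak, remote summits outside gene bodies, equal numbers of the strongest summits, sharing within 50 or 250 bp, libraries left out, other motif settings, and a comparison set beyond 5 kb. Chromosomes 1 to 19, summits beyond 50 kb and 35 to 45% GC were added after seeing the data. Calculations used Python 3.11.15, numpy 2.4.6, pandas 2.3.3 and numba 0.67.0, with matplotlib 3.10.9, and were tested on simulated data.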

Additional observations from a re-analysis of the deposited data

Results flagged for a closer look

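The change in remote share from day 1 to day 5 differed between some series, with intervals on the difference of the 2 changes that cover counting error only. It was lower in Sox2 of Oct6-SK than in Sox2 of Oct4-SK by -5.69 points (-8.16 to -3.21). It was lower in Sox2 of Oct6-SK than in Sox2 of Oct4defSox2-SK by -5.88 points (-8.38 to -3.34). It was lower for Sox2 than for Oct4 in Oct4-SK by -4.61 points (-6.43 to -2.78). Between Sox2 of Oct4defSox2-SK and of Oct4-SK the difference was 0.186 points (-1.545 to 1.88), not past counting error. Between Oct4defSox2 and Oct4 it was 0.689 points (-2.02 to 3.585), also not past it. No replicates were available to test these differences between series.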

How the results depend on the processing

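Each group had 1 library, and no paired analysis across series was made. Over 302 values from alternatives, 239 kept their sign and their side of counting error. Intervals cover counting error among summits and not differences between cultures, depth was unknown, and sites shared between libraries are not independent. All 5 differences in remote share between days 5 and 1 kept their sign under each alternative. The values that turned or crossed counting error follow, in points, and their cause was not tested except where the setting itself removes summits or libraries.

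At 100 kb the differences were 0.406 (Oct4 S151M minus Oct4), 0.654 (sites of 2 or more libraries), 1.55 (sharing with Oct4defSox2), 0.0238 and 5.91 (SoxOct in Oct4 at days 1 and 7), 0.429 and 0.413 (AP-1 in Oct4 and Oct4 S151M) and 2.77 (Sox2 score). At 500 kb they were -0.495 (Oct4 day 7 minus day 5), -1.46 (sites of 2 or more libraries), -0.0221 (2 or more antibodies), -0.0749 (AP-1 in Oct4 S151M), -1.34 (Sox motif) and -1.35 (Sox2 score).

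With starts of every transcript they were 0.0342 (Oct4 day 7 minus day 5), -0.285 (Oct4defSox2 minus Oct4, day 5), 0.329 and -0.271 (Oct4 S151M and Oct6 M151S minus Oct4), 0.361 and -0.0336 (Sox2 minus Oct4, days 1 and 5), 0.431 (2 or more antibodies), -6.63 (sharing with Oct4 S151M), 3.79 (co-binding with Sox2), 0.452 and 14.8 (SoxOct, days 1 and 7), -0.424 (AP-1 in Oct4 S151M), -2.32 (Sox motif) and -0.959 (Sox2 score). At a score of at least 10 they were -1.04 (Oct4defSox2 minus Oct4, day 5), 0.639 (Oct6 M151S minus Oct4), -1.15 (2 or more libraries), 0.0141 (2 or more antibodies), 1.55 (sharing with Oct4defSox2), 8.53 (SoxOct, day 7), -0.365 (Sox motif) and -2.64 (Sox2 score).

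Within 35 to 45% GC they were -1.75 and -3.30 (days 5 minus 1, Oct4 and Oct4defSox2), -0.238 (Oct4defSox2 minus Oct4, day 5), -1.20 and 2.69 (Oct4 S151M and Oct6 M151S minus Oct4), -0.960 (Sox2 minus Oct4, day 5), 1.10 and -3.36 (sharing with Oct4defSox2 and Oct4 S151M), 0.408 (SoxOct, day 1), 1.26 (AP-1 in Oct4 S151M) and 2.11 (Sox motif). With equal numbers of summits Oct4 S151M minus Oct4 was -5.34, and sharing was 0.193 with Oct4defSox2 and -2.06 with Oct4 S151M. Sharing with Oct4 S151M was -4.34 at 50 bp and 2.24 at 250 bp, where sharing with Oct4defSox2 was 1.44 and sites of 2 or more libraries 0.0114. The latter were 1.24 without Oct4 S151M, -0.709 without Oct6 M151S and 0.0144 on chromosomes 1 to 19. Outside coding gene bodies Oct4 S151M minus Oct4 was 0.877, beyond 50 kb Oct4defSox2 day 5 minus day 1 was -3.53, and against summits beyond 5 kb the Sox motif was -0.305. A looser match gave 2.51 (SoxOct, day 1) and 3.26 and -0.113 (AP-1 in Oct4 and Oct4 S151M), and a stricter match applied only to SoxOct and MORE, since the other motifs allowed 0 mismatches.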
